A study of Homo sapiens with 4 samples.

Results

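The mitochondrial ribosomal protein genes were taken as every gene whose platform symbol starts with MRPL or MRPS followed by a number, together with DAP3, and pseudogenes were left out. The rule found 77 genes, 48 of the large subunit and 29 of the small subunit (DAP3 among them), among 12197 genes tested. They had 111 probes on the array, of which 105 passed the filter on detection, and for each of the 77 genes the probe used was detected on all 4 arrays. The arrays were Illumina HT-12 BeadChips, 1-colour arrays that read a probe on many beads. They held total RNA of H358, an established human lung adenocarcinoma line. The 2 groups were H358 cells transfected with an shRNA against ADAR (2 arrays) and H358 cells transfected with a scrambled sequence (2 arrays). Per the labels all cells shared the line and a transfection. ADAR encodes an enzyme that edits double-stranded RNA by turning adenosine into inosine, and a short hairpin RNA (shRNA) lowers the transcript that it matches. The labels give a single name to the ADAR shRNA, and the replicates are called biological without a statement on whether each was a separate culture. The p-values measure only the spread between these arrays, which may be technical.

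Mitochondria keep a small genome and translate its messages on a ribosome of their own, which resembles that of bacteria more than the cytosolic ribosome does. Its RNAs come from mitochondrial DNA, whereas all of its proteins are encoded in the nucleus, made in the cytosol and imported. The products of mitochondrial translation are core subunits of the respiratory chain and of ATP synthase. Many mitoribosomal proteins have a bacterial counterpart, and others were added in the course of eukaryotic evolution.

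Promoter windows from RefSeq (GRCh38.p14) were held for 69 of the 77 genes. The 4 windows printed here each belong to a member with a changed level, with 1 listed start and no divergent neighbour, and together they show the YY1, ETS and NRF1 letters. Each runs 5′ to 3′ on the gene's strand over the 250 bases before the start, with the matches in capitals (CTTCCGG is CCGGAAG on the other strand). MRPL52 (fell, plus strand, chr14:22829637-22829886) holds the YY1 letters, MRPL58 (fell, plus strand, chr17:75012420-75012669) and MRPS10 (fell, minus strand, chr6:42217862-42218111) hold the ETS letters, and MRPL45 (rose, plus strand, chr17:38296918-38297167) holds the NRF1 letters.
MRPL52: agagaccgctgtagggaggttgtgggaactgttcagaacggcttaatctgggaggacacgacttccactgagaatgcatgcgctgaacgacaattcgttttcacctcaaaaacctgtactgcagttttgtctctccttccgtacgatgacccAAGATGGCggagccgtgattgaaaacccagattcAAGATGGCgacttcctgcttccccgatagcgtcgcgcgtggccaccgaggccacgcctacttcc
MRPL58: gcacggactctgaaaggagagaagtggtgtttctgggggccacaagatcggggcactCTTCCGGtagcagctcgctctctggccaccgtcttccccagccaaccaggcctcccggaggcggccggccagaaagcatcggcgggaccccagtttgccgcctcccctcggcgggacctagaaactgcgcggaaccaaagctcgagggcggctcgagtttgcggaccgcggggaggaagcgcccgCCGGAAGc
MRPS10: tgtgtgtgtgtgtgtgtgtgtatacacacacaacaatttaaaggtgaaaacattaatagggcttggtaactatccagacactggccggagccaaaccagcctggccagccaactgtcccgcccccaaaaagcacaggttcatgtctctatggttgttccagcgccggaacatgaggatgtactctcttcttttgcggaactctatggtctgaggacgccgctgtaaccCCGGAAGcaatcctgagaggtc
MRPL45: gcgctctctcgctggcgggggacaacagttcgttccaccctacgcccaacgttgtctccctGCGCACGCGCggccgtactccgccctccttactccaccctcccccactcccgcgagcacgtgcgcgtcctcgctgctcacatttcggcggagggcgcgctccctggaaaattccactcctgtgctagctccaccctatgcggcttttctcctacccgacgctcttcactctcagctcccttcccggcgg

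The search used CCGGAAG for ETS factors such as GABPA, AAGATGGC for YY1, CACGTG for the E-box, CCAAT, and the core palindrome of NRF1, which stands in capitals in the MRPL45 window, all on both strands. Only the YY1, ETS and NRF1 letters are in capitals in the windows. These factors are known for sites in promoters of nuclear genes for mitochondrial proteins. The ETS letters stood before 24 of 69 members (34.8%), against 18.3% of 9769 tested genes and 8.52% of 35116 promoters in all. Of the members with a window, the ETS letters were found in 12 of 28 that fell, in 0 of 6 that rose and in 12 of 35 that were not called. In the same order the E-box was found in 2, 3 and 3 members, and the NRF1 letters in 2, 1 and 6. The YY1 letters were found in 3, 0 and 2, and CCAAT in 10, 2 and 8. These splits were not tested. The YY1 letters were found in 5 of 69 members (7.25%), against 2.22% of the tested genes and 1.36% of all promoters. The NRF1 letters were found in 9 members (13.0%), against 11.9% of the tested genes and 5.07% of all promoters. The E-box was found in 8 members (11.6%), against 1079 of the 9769 tested genes and 6.34% of all promoters, and CCAAT in 20 of 69 members, against 42.2% of the tested genes and 32.0% of all promoters. A match describes the letters in a window and is not a binding site.

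The targeted gene was lower in the cells given its shRNA. The brighter ADAR probe had log2 intensities of 9.88 and 10.19 on the ADAR shRNA arrays, against 10.89 and 11.23 on the scrambled arrays, a difference of -1.03 (SE 0.21, limma with Benjamini-Hochberg adjustment, adjusted p = 0.00292). Its other probe read 8.74 and 9.10 on the ADAR shRNA arrays, against 9.38 and 8.83 on the scrambled arrays, so the groups overlapped there. Whole-array signal and cell markers also moved with the groups. Detected probes numbered 18722 and 19294 on the ADAR shRNA arrays, against 20901 and 20031 on the scrambled arrays, and the upper quartile of raw signal was 94.49 and 92.12 on the ADAR shRNA arrays, against 143.02 and 115.17 on the scrambled arrays. Of 6 epithelial markers, EPCAM and CDH1 were undetected on both ADAR shRNA arrays, and the other 4, all keratins, were detected on both. The summed level of the list was 2642 to 2935 on the ADAR shRNA arrays, against 20160 to 24260 on the scrambled arrays. The lung lineage markers FOXA2 and NKX2-1, the 2 of 7 that were tested, were undetected on the ADAR shRNA arrays as well, with a summed level there of 40.54 to 44.28, against 1243 to 1636 on the scrambled arrays. The haematopoietic markers CD14 and CD68, 2 of 7 tested, summed to 2502 to 3231 on the ADAR shRNA arrays, against 627.1 to 750.3 on the scrambled arrays, while CD3E, ITGAM, PTPRC and HBB did not pass the filter. The 3 of 8 fibroblast and endothelial markers tested summed to 104.4 to 117.4 on the ADAR shRNA arrays and 104.0 to 114.7 on the scrambled arrays. Whether both groups came from the same stock of H358 was not tested, nor was the part of these differences in the results below, and in bulk RNA fewer cells of a type and less RNA per cell cannot be told apart.

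More mitoribosomal protein genes fell than rose in the ADAR shRNA cells, in both subunits. In the large subunit 22 of 48 genes fell (45.8%) and 3 rose (6.25%), and the median log2 change was -0.49. In the small subunit 12 of 29 fell (41.4%) and 3 rose (10.3%), with a median of -0.41. Subunits follow the gene names here, so MRPS18A and MRPS30, large subunit proteins in mammals, are among the 29. The background was wide, since 32.2% of all genes tested fell and 25.5% rose, with a median of -0.08. Over both subunits 34 members fell (44.2%), a share above that of all genes, and 6 rose (7.79%), a share below that of all genes. Without the second ADAR shRNA array, the share of members that fell was not above that of all genes. The members ranged from -2.0 to 0.87 in the large subunit and from -1.68 to 1.18 in the small subunit. A fall of at least 2-fold was called in 7 large and 3 small subunit genes. These 10 of 77 members are a share below the 18.3% of all genes. A rise of that size was called in 1 member, also a share below that of all genes (14.4%).

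**Figure D1:**
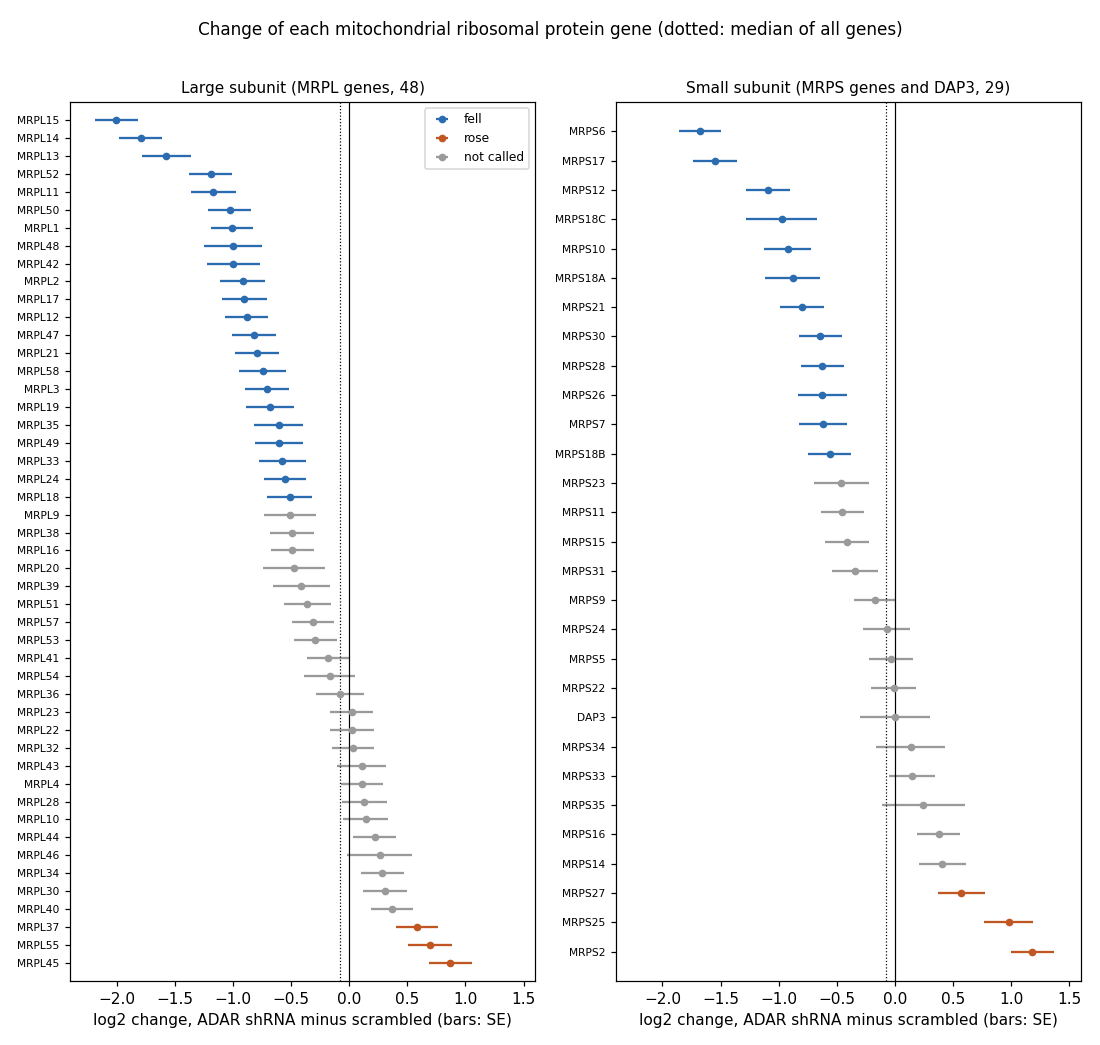
Log2 change (ADAR shRNA minus scrambled, x axis) of each mitoribosomal protein gene with its standard error, large subunit and small subunit apart. Blue genes fell and orange genes rose at a limma adjusted p under 0.05, grey genes were not called, and the dotted line is the median of all genes (-0.08). Of 48 large subunit genes 22 fell and 3 rose, and of 29 small subunit genes 12 fell and 3 rose.

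The rises depended on the scaling between arrays. In the raw signal, 45 of 48 large and 22 of 29 small subunit genes were lower on both ADAR shRNA arrays than on both scrambled arrays (87.0% of members), against 66.3% of all genes. Only MRPS2 was higher on both ADAR shRNA arrays in the raw signal, against 15.6% of all genes. After quantile normalization 29 large and 17 small subunit genes lay lower without overlap (43.3% of all genes), and 8 large and 5 small subunit genes lay higher (36% of all genes). With each array scaled to its median instead, the median of all genes moved to -0.54. The large subunit then fell in 38 of 48 genes, against 49.3% of all genes, and no member rose, against 14.2% of all genes. Relative to the all-gene median, the large subunit stood at -0.41 after quantile normalization and at -0.59 after median scaling, and the small subunit at -0.33 and -0.50.

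The deepest falls of the large subunit were in 3 proteins with a bacterial counterpart. MRPL15, the counterpart of bacterial L15 in the core of the subunit, had log2 intensities of 7.62 and 7.83 on the ADAR shRNA arrays, against 9.68 and 9.78 on the scrambled arrays. MRPL14, whose bacterial counterpart lies at the interface between the subunits, read 8.39 and 8.51 on the ADAR shRNA arrays, against 10.17 and 10.32 on the scrambled arrays. MRPL13, the counterpart of L13, read 8.97 and 8.63 on the ADAR shRNA arrays, against 10.54 and 10.21 on the scrambled arrays. For all 3 genes the groups stood apart by more than 1 log2 unit. The changes were -2.0 (SE 0.19, limma adjusted p = 2.87e-05), -1.79 (SE 0.18, adjusted p = 5.05e-05) and -1.57 (SE 0.21, adjusted p = 0.000252). They are 4-fold, 3.46-fold and 2.98-fold lower levels. In the raw signal MRPL15 was read at 187.2 and 206.1 on the ADAR shRNA arrays, against 1258.9 and 1066.7 on the scrambled arrays.

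Of 4 proteins of the flexible stalks of the large subunit, which guide translation factors and tRNA, MRPL11, MRPL12 and MRPL1 fell and MRPL10 did not pass the test. These 4 were grouped after their values were seen, and 32.2% of all genes fell. MRPL11, at the base of the stalk, read 9.01 and 8.86 on the ADAR shRNA arrays, against 10.23 and 9.97 on the scrambled arrays (-1.17, SE 0.19, limma adjusted p = 0.00085). MRPL12, the stalk protein that also binds mitochondrial RNA polymerase, read 9.30 and 9.08 on the ADAR shRNA arrays, against 10.10 and 10.05 on the scrambled arrays (-0.88, SE 0.19, adjusted p = 0.00344). MRPL1, of the stalk on the tRNA exit side, read 7.75 and 7.67 on the ADAR shRNA arrays, against 8.75 and 8.67 on the scrambled arrays (-1.0, SE 0.18, adjusted p = 0.00141). In each of the 3 both ADAR shRNA arrays lay below both scrambled arrays. MRPL10, which ties the stalk to the ribosome, differed by 0.14, and its probes differed in sign.

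Several members without a bacterial counterpart were also lower. MRPL52 read 6.79 and 6.62 on the ADAR shRNA arrays, against 7.90 on each scrambled array (-1.19, SE 0.18, limma adjusted p = 0.000576). MRPL50 read 9.09 and 8.96 on the ADAR shRNA arrays, against 10.03 and 10.07 on the scrambled arrays (-1.03, SE 0.18, adjusted p = 0.00128). MRPL48 read 7.66 and 6.94 on the ADAR shRNA arrays, against 8.30 on each scrambled array (-1.0, SE 0.25, adjusted p = 0.00758). The ADAR shRNA arrays of MRPL48 differed from each other more than its scrambled arrays did, and without the second of them the change was -0.64 and no longer called. The other falls in the large subunit included MRPL58, a peptidyl-tRNA hydrolase that rescues stalled ribosomes and became part of the mitoribosome (-0.74), and MRPL42 (-0.99), MRPL2 (-0.92), MRPL17 (-0.90) and MRPL47 (-0.82). MRPL33, MRPL24 and MRPL3, whose probes gave the brightest signals of the subunit, also fell. MRPL33 read 11.59 and 11.20 on the ADAR shRNA arrays, against 12.01 and 11.92 on the scrambled arrays, while MRPL24 read 11.01 and 11.004 on the ADAR shRNA arrays, against 11.61 and 11.51 on the scrambled arrays. MRPL3 read 10.75 and 10.51 on the ADAR shRNA arrays, against 11.38 and 11.30 on the scrambled arrays. The groups stood apart in all 3, and the changes were -0.57, -0.55 and -0.71. Such falls lost the call when 1 array was left out. MRPL24, of the region around the exit tunnel, lost it under each of the 4 omissions (-0.60 to -0.50), and MRPL33, MRPL35 and MRPL3 without the second ADAR shRNA array (-0.38, -0.41 and -0.59).

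Not every large subunit gene moved. MRPL22 and MRPL23, counterparts of bacterial proteins at the exit tunnel, each differed by 0.02. MRPL22 read 9.93 and 9.66 on the ADAR shRNA arrays, against 9.78 and 9.76 on the scrambled arrays, and MRPL23 read 9.46 and 9.59 on the ADAR shRNA arrays, against 9.56 and 9.45 on the scrambled arrays. In both genes the groups overlapped, but a dimmer probe of MRPL22 gave 0.70 and was called as a rise in the test over all probes. The 3 genes that rose were MRPL45, MRPL55 and MRPL37, none of them counted here as having a bacterial counterpart. MRPL45, which lies at the tunnel exit and holds the ribosome to the inner membrane, read 10.17 and 10.29 on the ADAR shRNA arrays, against 9.29 and 9.42 on the scrambled arrays (0.87, SE 0.18, limma adjusted p = 0.00337). MRPL55 read 8.82 and 8.80 on the ADAR shRNA arrays, against 8.0 and 8.23 on the scrambled arrays (0.70, SE 0.19, adjusted p = 0.0115). MRPL37 read 10.93 on each ADAR shRNA array, against 10.33 and 10.37 on the scrambled arrays (0.58, SE 0.18, adjusted p = 0.0214). The groups of all 3 stood apart after normalization. In the raw signal MRPL45 and MRPL37 overlapped between groups, and MRPL55 was lower on both ADAR shRNA arrays. MRPL45 had raw signals of 936.5 and 994.1 on the ADAR shRNA arrays, against 983.2 and 847.2 on the scrambled arrays. With median scaling the changes were 0.22, -0.02 and 0.03 and none was called.

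In the small subunit, MRPS6 and MRPS17 changed most. MRPS6, the counterpart of bacterial S6, read 9.22 and 9.12 on the ADAR shRNA arrays, against 10.80 and 10.90 on the scrambled arrays (-1.68, SE 0.18, limma adjusted p = 6.97e-05). MRPS17, the counterpart of S17, read 7.91 and 7.76 on the ADAR shRNA arrays, against 9.48 and 9.29 on the scrambled arrays (-1.55, SE 0.19, adjusted p = 0.000139). These are 3.20-fold and 2.93-fold lower levels, with wide gaps between the groups. MRPS12, whose bacterial counterpart lies in the decoding centre, read 10.22 and 10.31 on the ADAR shRNA arrays, against 11.24 and 11.47 on the scrambled arrays (-1.09, SE 0.19, adjusted p = 0.00112). Its other probes gave -0.48 and 0.05, so the size rests on the brightest probe. MRPS10 read 9.31 and 8.94 on the ADAR shRNA arrays, against 10.09 and 10.003 on the scrambled arrays (-0.92, SE 0.20, adjusted p = 0.00402). MRPS21 read 11.79 and 11.99 on the ADAR shRNA arrays, against 12.61 and 12.77 on the scrambled arrays (-0.80, SE 0.19, adjusted p = 0.0061). Both groups stood apart in these genes as well.

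The 3 human relatives of bacterial S18 all fell. MRPS18C read 9.39 and 8.84 on the ADAR shRNA arrays, against 10.53 and 9.64 on the scrambled arrays (-0.97, SE 0.31, limma adjusted p = 0.0228). MRPS18A, which in mammals sits in the large subunit, read 7.50 and 6.96 on the ADAR shRNA arrays, against 7.93 and 8.29 on the scrambled arrays (-0.88, SE 0.24, adjusted p = 0.0113). MRPS18B read 9.87 and 9.69 on the ADAR shRNA arrays, against 10.31 and 10.38 on the scrambled arrays (-0.56, SE 0.19, adjusted p = 0.0284). The replicates of MRPS18C differed widely, but the groups did not overlap in any of the 3 genes. Each of the 3 calls was lost when single arrays were left out: MRPS18C gave -0.53 without the first scrambled array, MRPS18A -0.61 without the second ADAR shRNA array and MRPS18B -0.47 without that array. MRPS30, also a large subunit protein in mammals despite its name, fell by 0.64 and lost its call in 3 of the 4 omissions. With MRPS18A and MRPS30 placed in the large subunit, 24 of 50 large subunit genes fell and 3 rose (median -0.50). In the small subunit 10 of the remaining 27 genes fell and 3 rose (median -0.35). Of all genes 32.2% fell and 25.5% rose, so this placement brought the small subunit's share of falls nearer to that of all genes.

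The small subunit also held the strongest rise. MRPS2, the counterpart of bacterial S2, read 9.29 and 9.49 on the ADAR shRNA arrays, against 8.21 and 8.20 on the scrambled arrays (1.18, SE 0.19, limma adjusted p = 0.000641), a 2.27-fold higher level. MRPS25 read 7.27 and 7.71 on the ADAR shRNA arrays, against 6.55 and 6.48 on the scrambled arrays (0.98, SE 0.21, adjusted p = 0.00347). MRPS27, a protein of the pentatricopeptide repeat family of RNA binders, read 9.30 and 9.68 on the ADAR shRNA arrays, against 8.91 and 8.93 on the scrambled arrays (0.57, SE 0.20, adjusted p = 0.0367). With median scaling these changes were 0.49, 0.39 and -0.14, with no call. MRPS2 had raw signals of 507.2 and 574.8 on the ADAR shRNA arrays, against 490.5 and 382.3 on the scrambled arrays. DAP3, a GTP-binding small subunit protein also known for a part in cell death, read 10.35 and 10.65 on the ADAR shRNA arrays, against 10.98 and 10.02 on the scrambled arrays. Its scrambled arrays lay on both sides of the ADAR shRNA arrays, and the change was 0.00 (SE 0.30, adjusted p = 0.997). MRPS22 differed by -0.01.

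**Figure D2:**
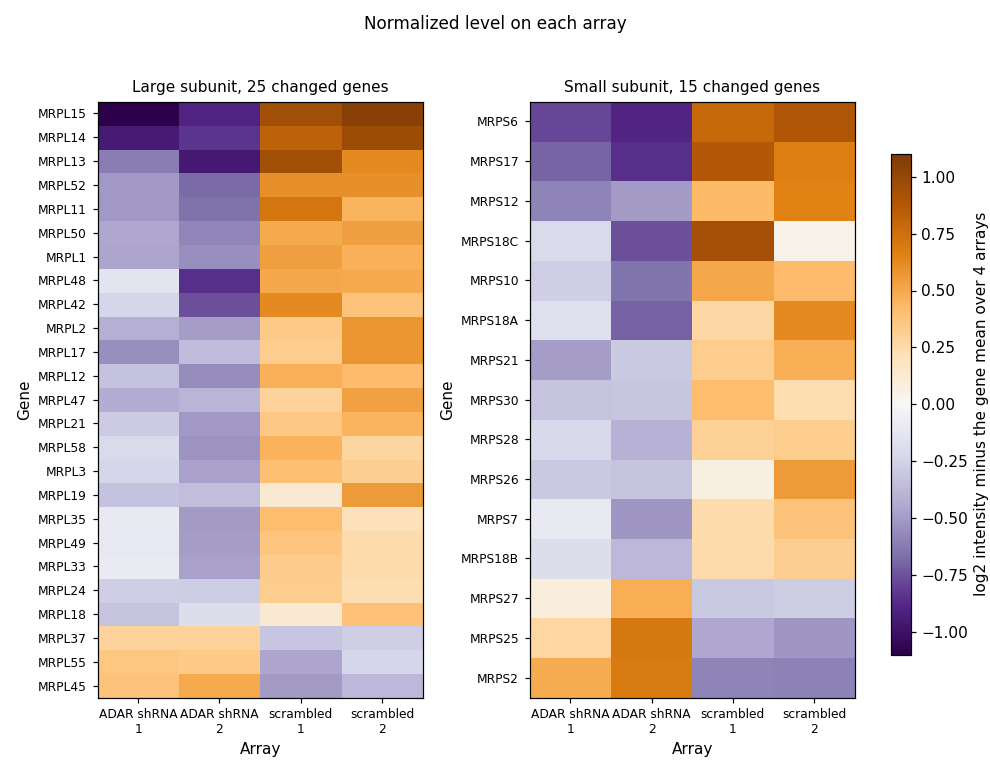
Heat map of the normalized log2 intensity of each called member, 22 fallen and 3 risen in the large subunit and 12 fallen and 3 risen in the small subunit, minus the gene's mean over the 4 arrays (columns, ADAR shRNA arrays left of scrambled arrays). Purple is below and orange above the mean. MRPL15 reads 7.62 and 7.83 on the ADAR shRNA arrays and 9.68 and 9.78 on the scrambled arrays, while MRPS2 reads 9.29 and 9.49 on the ADAR shRNA arrays and 8.21 and 8.20 on the scrambled arrays.

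The members were also divided by whether the protein was counted as having a bacterial counterpart. The division was drawn up after the values were seen and is given as counts with no test. In the large subunit 15 of 27 genes with a counterpart fell (55.6%) and 0 rose, whereas 7 of 21 without one fell (33.3%) and 3 rose (14.3%). In the small subunit 8 of 16 with a counterpart fell (50%) and 1 rose, whereas 4 of 13 without one fell (30.8%) and 2 rose. Of all genes 32.2% fell and 25.5% rose, so the shares of falls without a counterpart were near the background. The medians were -0.55 with and -0.31 without a counterpart in the large subunit, and -0.54 and -0.01 in the small subunit. With median scaling 23 of 27 and 15 of 21 fell in the large subunit, 13 of 16 and 7 of 13 in the small subunit, and 0 rose. Of all genes 49.3% fell and 14.2% rose with that scaling. MRPS18C was counted with the counterparts and its relatives MRPS18A and MRPS18B without. With all 3 counted as counterparts, 10 of 18 fell with one and 2 of 11 without in the small subunit. MRPL47 (fell) and MRPL55 (rose) were counted without a counterpart. That placement was not checked and may be wrong for both, so the 0 rises with a counterpart in the large subunit rest on it.

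A gene with several probes gives a check within the arrays. Of 24 members with more than 1 tested probe, 19 had probes of the same sign and 5 did not (MRPL10, MRPL21, MRPL35, MRPS11 and MRPS12). In 0 members did called probes run in opposite directions, and the median spread between probes of a gene was 0.24. MRPL11 gave -1.17, -0.63 and -1.12 with its 3 probes. MRPL35 gave -0.61, 0.52 and -0.17, the widest disagreement together with MRPS12. MRPL45 gave 0.87 and 1.76, and MRPL55 gave 0.70 and 0.92, all called. MRPL43, not called with its brightest probe, had a dimmer probe that rose (0.87). Tested probe by probe, MRPL33, MRPL18 and MRPS27 had no called probe, and 37 of 105 member probes fell (26.3% of all probes) and 9 rose (24.2% of all probes).

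**Figure D3:**
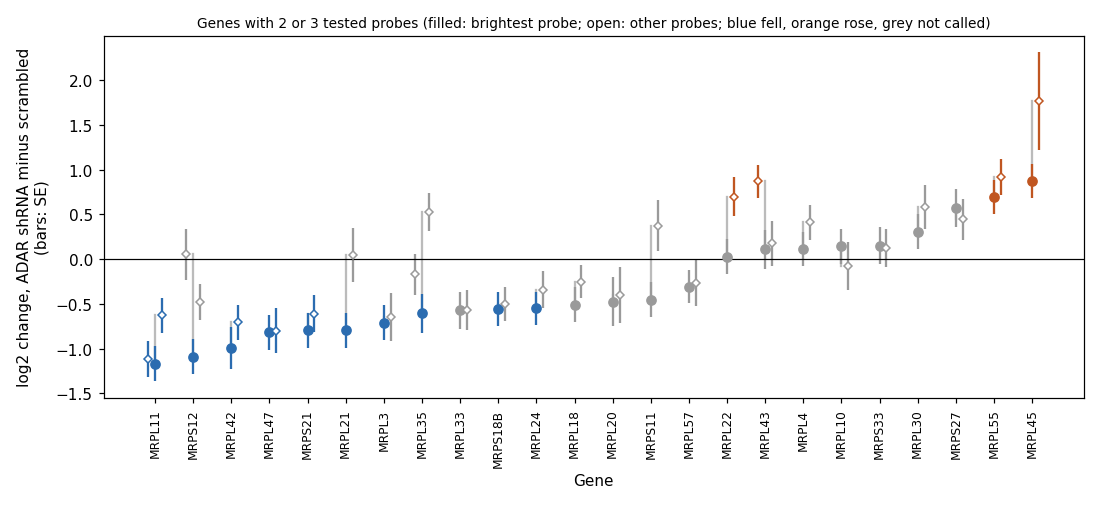
Log2 change (ADAR shRNA minus scrambled) of every tested probe of the 24 members with more than 1 tested probe, with standard errors. Filled points are the brightest probe of a gene, open points the others, blue and orange mark probes that fell or rose in the test over all probes, and grey ones were not called. In 19 genes all points lie on 1 side of 0, and in MRPL35 and MRPS12 they span more than 1 log2 unit.

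Some chromosomes were lower or higher as a whole. All 6 members on chromosome 6 fell (MRPL14, MRPL2, MRPL18, MRPS10, MRPS18A and MRPS18B), where 39.9% of all tested genes fell. All 3 members on chromosome 8 fell (MRPL15, MRPL13 and MRPS28), on a chromosome where 50% of the genes fell with a median of -0.56. Both members on chromosome 4 fell too, where 50.2% of genes fell with a median of -0.53. On chromosome 10 neither of 2 members fell, and 43.8% of genes there rose. Taken relative to the median of their own chromosome, MRPL15 stood at -1.44, MRPL13 at -1.01 and MRPS28 at -0.06. By that measure 35 of 48 large and 21 of 29 small subunit genes lay below their chromosome's median, and the subunit medians were -0.30 and -0.25. The part of these chromosome-wide differences in the members' falls was not tested.

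Genes that share a promoter region with a member gave a further view. Within 1000 bases a divergent neighbour lay before 26 of the 69 members with a window (37.7%), against 28.2% of tested genes. In 19 pairs both genes were tested. Both fell in 2 pairs and both rose in 2, and in the others at least 1 gene was not called. The 0 pairs with calls in opposite directions therefore say little. Where the member fell, the neighbour fell in 2 pairs and was not called in 6, while 32.2% of all genes fell. Whether neighbours changed together was not tested. MRPS2 and its neighbour PIERCE1 both rose (1.18 and 2.03), and so did MRPS27 and PTCD2 (0.57 and 1.14). In the 1 other pair with a risen member, MRPL37 rose (0.58) and CYB5RL was not called (-0.38). MRPL49 and the ribosomal protein gene FAU both fell (-0.60 and -0.54), as did MRPS18B and PPP1R10 (-0.56 and -0.82). In 6 pairs the member fell without a call for its neighbour: MRPL14 changed by -1.79 and TMEM63B by -0.46, and MRPS12 changed by -1.09 and SARS2, the mitochondrial seryl-tRNA synthetase, by -0.35. In 3 pairs only the neighbour fell, among them SKA3 beside MRPL57 (-2.70) and the condensin gene NCAPD2 beside MRPL51 (-1.63).

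Other genes of mitochondrial translation moved in both directions after quantile normalization. Of 22 assembly factors tested 5 rose and 3 fell, with a median of -0.10, whereas with median scaling 2 rose and 11 fell (-0.53). Of all genes 25.5% rose and 32.2% fell as reported, and 14.2% rose and 49.3% fell with median scaling (-0.54). MTERF3, known in mice as a factor of mitoribosome assembly, read 8.03 and 7.93 on the ADAR shRNA arrays, against 9.30 and 9.52 on the scrambled arrays (-1.43, SE 0.19, limma adjusted p = 0.000225). MRM2, a methyltransferase of the large subunit RNA, fell by 0.78. By contrast, METTL15, a methyltransferase of the small subunit RNA, read 7.88 and 7.54 on the ADAR shRNA arrays, against 5.94 and 5.89 on the scrambled arrays (1.80, SE 0.20, adjusted p = 7.38e-05). TFB1M, which dimethylates the small subunit RNA, read 8.42 and 8.18 on the ADAR shRNA arrays, against 7.02 and 7.0 on the scrambled arrays (1.28, SE 0.19, adjusted p = 0.000425). The groups stood apart in these 3 genes. The rise of TFB1M was not called without normalization between arrays (0.52). Of 3 further mitoribosome proteins, GADD45GIP1 fell by 1.18, and it was detected on 1 of the 2 ADAR shRNA arrays.

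Of 15 translation factors tested 2 rose and 5 fell, with a median of -0.03, whereas with median scaling 0 rose and 9 fell (-0.74). With median scaling 14.2% of all genes rose and 49.3% fell (-0.54), against 25.5% and 32.2% as reported. SLIRP, a partner of LRPPRC in keeping mitochondrial mRNA stable, read 12.32 and 12.28 on the ADAR shRNA arrays, against 13.01 and 13.12 on the scrambled arrays (-0.76, SE 0.18, limma adjusted p = 0.00623). GUF1, an elongation factor related to bacterial LepA, fell by 0.77. The elongation factors TUFM (0.11), TSFM (-0.29) and GFM1 (-0.03) did not pass the test, nor did LRPPRC (0.38). The initiation factor MTIF3 (0.84) and the insertase OXA1L (0.93) rose, and with median scaling they stood at 0.17 and 0.24 without a call. Of 18 mitochondrial aminoacyl-tRNA synthetases 5 rose and 5 fell, from AARS2 (-1.64) and KARS1 (-1.28) to EARS2 (1.12) and MARS2 (1.15). With median scaling 0 of the 18 rose and 9 fell, the latter a share near that of all genes (49.3%). Of 11 genes of mitochondrial DNA maintenance and transcription 2 rose (POLG, the mitochondrial DNA polymerase, at 0.83 and the helicase TWNK at 1.08) and 3 fell (among them the nuclease MGME1 at -1.42). With median scaling 0 of the 11 rose and 7 fell, with POLG and TWNK at 0.22 and 0.45. TFAM, which packages and transcribes mitochondrial DNA, read 8.71 and 8.42 on the ADAR shRNA arrays, against 9.25 and 9.54 on the scrambled arrays (-0.83, SE 0.20, adjusted p = 0.00751).

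Among 10 regulators of mitochondrial biogenesis tested 2 rose and 1 fell, against 25.5% and 32.2% of all genes. With median scaling 2 rose and 4 fell, against 14.2% and 49.3% of all genes. YY1 read 10.10 and 10.05 on the ADAR shRNA arrays, against 11.19 and 11.36 on the scrambled arrays (-1.20, SE 0.18, limma adjusted p = 0.000554). MYC read 10.07 and 10.53 on the ADAR shRNA arrays, against 8.75 and 8.55 on the scrambled arrays (1.65, SE 0.21, adjusted p = 0.000207). PPARGC1A, the coactivator PGC-1 alpha, read 6.01 and 7.29 on the ADAR shRNA arrays, against 4.91 and 5.11 on the scrambled arrays (1.64, SE 0.36, adjusted p = 0.00388). Its ADAR shRNA arrays lay more than 1 log2 unit apart. GABPA (-0.36) and ESRRA (0.32) did not pass the test.

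The cytosolic ribosome and the respiratory chain were set beside the mitoribosome, as counts with no test between the lists. Of 68 cytosolic ribosomal protein genes 22 rose (32.4%) and 4 fell (5.88%), with a median of 0.30. Of 69 nuclear genes for respiratory chain and ATP synthase subunits 13 rose (18.8%) and 27 fell (39.1%), with a median of -0.22. Both mitoribosomal subunits had lower medians than either list. With median scaling 58 of 77 mitoribosomal genes fell and 0 rose (median -1.05), 37 of 69 respiratory chain genes fell and 1 rose (-0.72), and 5 of 68 cytosolic ribosomal protein genes fell and 23 rose (0.41). Of all genes 49.3% fell and 14.2% rose with that scaling (-0.54). Single genes of both lists moved further than any member, with UQCRC2 of complex III at 2.73, RPS23 at 2.18 and ATP5ME of ATP synthase at -2.06. UQCRC2 and RPS23 kept their calls with median scaling (2.11 and 1.55). The next in each list were RPL13A (1.89), RPL34 (-1.98), RPL36A (-1.49), NDUFA10 of complex I (1.102) and UQCRB of complex III (-1.90), of which NDUFA10 had no call with median scaling (0.41). Several cytosolic ribosomal protein genes have many processed pseudogenes, so their probes may read related transcripts.

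**Figure D4:**
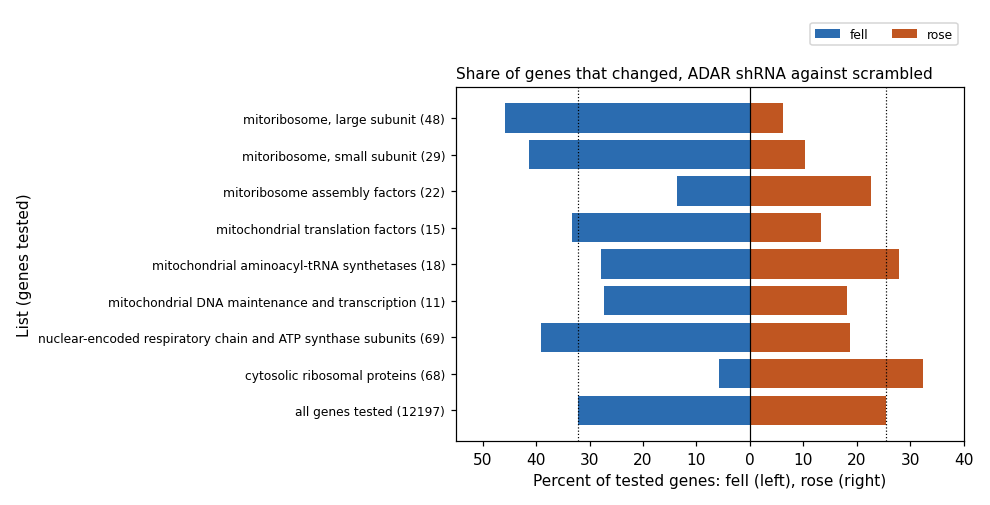
Percent of tested genes in each list that fell or rose (limma, adjusted p under 0.05), with all 12197 tested genes as the background (dotted lines). The large subunit fell in 45.8% and the small subunit in 41.4% of genes, against 32.2% of all genes, and cytosolic ribosomal proteins fell in 5.88%. Subunits follow the gene names, with MRPS18A and MRPS30 counted as small.

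Under all 15 alternatives 12 of 22 falls in the large subunit and 5 of 12 in the small subunit kept their call. Median scaling and no normalization lowered the median of all genes (-0.54 and -0.68, against -0.08 as reported). They also lowered the median of the members (-1.05 and -1.19, against -0.46). For the members they therefore acted against rises and not against falls, and 0 of the 6 rises kept their call under both. The shift was not uniform, since cytosolic ribosomal proteins had a median of 0.41 with median scaling, against 0.30 as reported. Over the other 13 alternatives 17 of 34 falls and 3 of 6 rises (MRPL45, MRPS25 and MRPS2) kept theirs. The 12 falls in the large subunit were MRPL15, MRPL14, MRPL13, MRPL52, MRPL11, MRPL50, MRPL1, MRPL42, MRPL2, MRPL17, MRPL12 and MRPL47, and the 5 in the small subunit were MRPS6, MRPS17, MRPS12, MRPS10 and MRPS21.

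**Figure D5:**
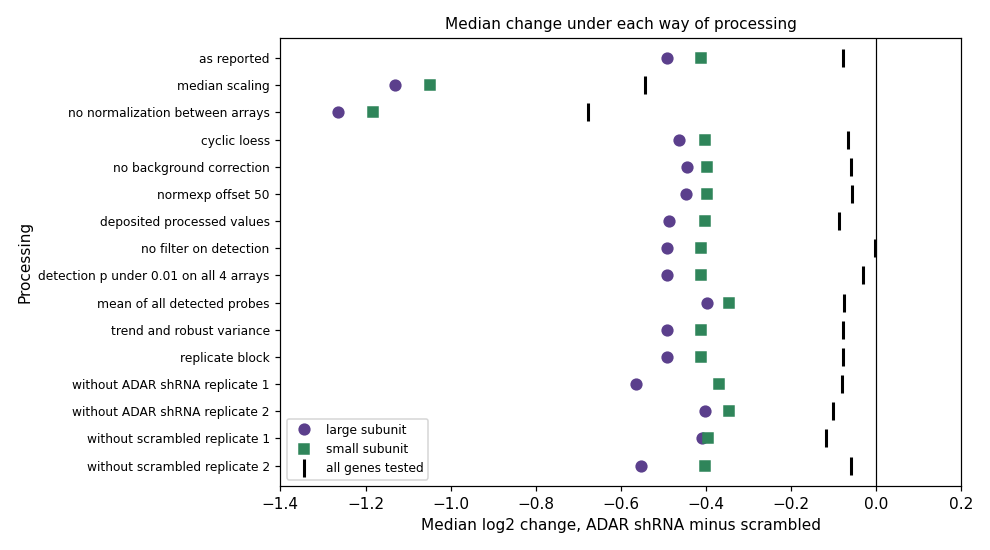
Median log2 change (ADAR shRNA minus scrambled, x axis) of the large subunit (circles), the small subunit (squares) and all genes (bars) under the reported processing and each of 15 alternatives. The large subunit median is -0.49 as reported, -0.57 to -0.40 when 1 array is left out, and -1.13 with median scaling and -1.26 without normalization, where all genes stand at -0.54 and -0.68.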

How the data were processed

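RNA of H358 cells was measured on 4 Illumina HT-12 arrays, 2 per group. The deposited scanner table held 47322 probes, and per the file headers gave each probe a mean intensity on a linear scale, a count of beads, a bead standard error in units of signal, and a p-value of detection. GenomeStudio made the values, per the submitters' processing notes, with no version given. A further table of processed intensity deposited by the authors was used as an alternative: its column medians were 8.02 to 8.05 with 25.1% to 25.2% of values below 0, and its centring and scaling are unknown.

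Background was corrected with normexp, with the background's mean and spread inferred from the detection p-values (limma's nec, offset 16), and arrays were quantile normalized on the log2 scale of the deposited intensity (R 4.3.3, limma 3.58.1). Probes with a detection p under 0.05 on at least 2 of 4 arrays were kept (21263). The platform annotation gave 1 symbol to 30113 probes, several to 8 and none to 17201, and no symbol needed an update. The brightest probe stood for a gene, which left 12197 genes. Limma was fitted over all genes with 2 residual and 6.83 prior degrees of freedom, and a call is a Benjamini-Hochberg adjusted p under 0.05 over all genes. A log2 change is ADAR shRNA minus scrambled. The fit alone was tried on simulated normalized values in which few genes changed, as many up as down. Background correction and normalization were not part of that trial, so it cannot speak to the choice of scaling. A probe's level was not read as its gene's abundance against that of another gene.

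By rule, the text names in each subunit up to 8 of the largest falls and of the largest rises among called members without overlap, the 2 members nearest 0, the 3 brightest, members of special role or with disagreeing probes, and up to 2 rises and 2 falls of each other list. Further genes are named as parts of counts, pathways or printed sequences and were chosen after their values were seen. The members and lists were chosen with earlier results of these data known. Median scaling, no normalization, other filters, other offsets, the mean of probes and leaving out arrays were tried, and centring on chromosome medians was added after seeing the data. Beads per member probe numbered 7 to 35, and the number of arrays limits the precision. Replicate arrays were not copies of each other: 27.8% of probes in the ADAR shRNA pair and 42.9% in the scrambled pair differed beyond bead error, where chance gives 5%. For member probes the shares were 41% in the ADAR shRNA pair and 52.4% in the scrambled pair.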

Additional observations from a re-analysis of the deposited data

How the results depend on the processing

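Median scaling and no normalization between arrays changed most. With them, 1733 and 1377 of all genes rose (14.2% and 11.3%) and 6017 and 6415 fell (49.3% and 52.6%). Rises made up 22.4% and 17.7% of the calls, against 44.2% with quantile normalization. In the large subunit 38 and 39 genes fell, in the small subunit 20 and 20, and 0 rose in either. The large subunit median was -1.13 and -1.26, and the small subunit median -1.05 and -1.18, while all genes stood at -0.54 and -0.68. Of 24 members above 0 as reported, 19 lay below 0 with median scaling and 21 with no normalization. Among them, in the same order, were MRPL10 (-0.49 and -0.62), MRPL22 (-0.64 and -0.77), MRPL23 (-0.66 and -0.79), MRPL32 (-0.62 and -0.76), MRPL43 (-0.58 and -0.71), MRPL55 (-0.015 and -0.15), MRPS27 (-0.14 and -0.28), MRPL34 (-0.44 and -0.57) and, with no normalization alone, MRPL37 (-0.10). The cause was not tested. Requiring detection on all 4 arrays at the stricter p left 2533 genes that fell, among fewer genes tested. The mean of all probes of a gene gave a large subunit median of -0.40, and centring on chromosome medians, chosen after seeing the data, gave -0.30 and a small subunit median of -0.25. Leaving out 1 array at a time, 13 to 20 large and 5 to 9 small subunit genes fell, with a large subunit median of -0.57 to -0.40. With the replicate block 26 large and 12 small subunit genes fell and 3 rose in each, while 34.1% of all genes fell and 27.3% rose. No member lost its call with the block and 4 gained one. The replicate numbers were not taken to pair the samples, since there are 2 pairs (correlation of deviations 0.106). With 2 arrays a group the smallest changes cannot be resolved: MRPL18 was called at -0.51, and MRPL9, whose arrays differed more, was not at -0.51.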
